A study of Mus musculus with 127 samples.

Results

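The windows described here are the stretches of 10 kb on mouse chromosomes 1 to 19 whose deposited position along the cutting axis of a nucleus falls between slices. In sequential genome architecture mapping, 1 nucleus is sliced thinly from end to end. The DNA found in a slice, or nuclear profile, shows which parts of the genome lay at that height. Most positions of a nucleus are whole multiples of 0.2 axis units above its lowest one, and these multiples are called the grid here. Members were chosen by their deposited position: a window lay between slices when its position, in grid steps above the lowest of the nucleus, differed from a whole number by more than 0.00001 steps. That rule took 317539 of 1132635 autosomal window listings (28.0%), and the other 815096 lay on the grid. A window listed in both files of a nucleus counts as 2 listings.

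The series holds 10 nuclei of F123, an established line of mouse embryonic stem cells from a CAST x 129 hybrid. All were grown with the cytokine LIF on feeder fibroblasts, passaged off the feeders before use and given no treatment, per the labels. Batch B18F has Cell25, Cell26, Cell27, Cell28, Cell38 and Cell39, and batch B16F has Cell17, Cell18, Cell19 and Cell20, with 122 profiles in all and 7 to 23 a nucleus. Each nucleus has 2 files, numbered 0 and 1, whose meaning is not given in the sources used here. The 5 controls have no position file. The nuclei come from 1 cell line, and nothing in the labels says that they came from separate cultures, so the p-values below measure the spread between these nuclei.

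Chromosomes of an interphase nucleus occupy territories, and neighbouring stretches of a chromosome tend to lie close together in space. A thin slice holds only the parts of each territory that lie at its height. The mouse genome also holds long blocks of near-identical copies, among them arrays of small RNA genes, receptor gene families and the repeats beside the centromeres, which in this species lie at the start of each chromosome. Reads from such copies cannot be assigned to a single place by sequence alone.

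The span of positions held as many grid places as the nucleus has profiles in 8 of 10 nuclei, and 1 more in Cell18 and Cell38. Windows on the grid lay within 9.35e-12 steps of a whole number, and the nearest window counted as between slices lay 7.19e-05 steps away, in Cell20. In all, 5 between-slice windows lay within 10 times the threshold.

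The sequences shown are promoters picked, after values were seen, because they occur in identical copies, and most between-slice windows hold no such promoter. At chr6:47650001-47690000, 4 adjacent windows were between slices in all 10 nuclei, and they hold the 4.5S RNA gene Rn4.5s and a row of predicted genes. RefSeq (GRCm38.p6) gives a promoter to Gm40369, Gm40367, Gm36327 and Gm40364 there that is the same over all 300 bases. A further promoter of Gm40369, at chr6:47652651-47652950, matches it at 24.7% of positions. The identical copies lie on the plus strand at chr6:47653742-47654041, chr6:47662342-47662641, chr6:47675332-47675631 and chr6:47679657-47679956, and 1 copy is shown, with the 50 bases from the gene start on in capitals.
Gm40369: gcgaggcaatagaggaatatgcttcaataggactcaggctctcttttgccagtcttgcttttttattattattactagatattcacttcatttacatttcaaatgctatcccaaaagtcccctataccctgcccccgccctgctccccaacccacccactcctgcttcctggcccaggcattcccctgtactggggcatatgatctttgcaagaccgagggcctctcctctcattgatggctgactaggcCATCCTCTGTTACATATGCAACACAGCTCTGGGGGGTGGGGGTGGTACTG

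The 1 Mb of chromosome 8 with the highest share of between-slice windows holds a pair of predicted genes, Gm21119 and Gm15319, whose promoters are also identical, on opposite strands (chr8:20614677-20614976, plus strand, and chr8:20363153-20363452, minus strand). A like pair on chromosome 14 is Gm2977 (chr14:3503766-3504065) and Gm3050 (chr14:3743159-3743458), both on the plus strand. Capitals again mark the 50 bases from the gene start on.
Gm21119: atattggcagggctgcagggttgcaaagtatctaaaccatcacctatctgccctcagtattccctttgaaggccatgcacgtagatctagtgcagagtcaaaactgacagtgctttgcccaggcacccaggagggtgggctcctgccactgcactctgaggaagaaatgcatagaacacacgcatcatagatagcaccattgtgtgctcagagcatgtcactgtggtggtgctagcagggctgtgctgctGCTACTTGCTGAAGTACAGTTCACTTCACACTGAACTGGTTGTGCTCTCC
Gm2977: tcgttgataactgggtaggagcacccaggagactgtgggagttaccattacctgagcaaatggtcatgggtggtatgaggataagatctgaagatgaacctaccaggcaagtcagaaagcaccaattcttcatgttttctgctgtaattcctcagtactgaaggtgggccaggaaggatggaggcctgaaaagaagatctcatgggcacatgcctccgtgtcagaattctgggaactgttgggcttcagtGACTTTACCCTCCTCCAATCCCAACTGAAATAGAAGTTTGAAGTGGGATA

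On chromosome 9, 4 adjacent windows at the start of the sequenced chromosome were between slices in both files of all 10 nuclei. The last of them holds the microRNA gene Mir101c (mature sequence at chr9:3038680-3038698, minus strand), shown with its seed (bases 2 to 8) in capitals.
mmu-miR-101c: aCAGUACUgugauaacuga

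The share of autosomal windows between slices was 26.9% ± 6.94 (SD, n = 10 nuclei). In B18F it was 31.5% in Cell25, 28.8% in Cell26, 21.9% in Cell27, 32.1% in Cell28, 37.1% in Cell38 and 11.5% in Cell39. In B16F it was 29.4% in Cell17, 23.9% in Cell18, 25.3% in Cell19 and 27.4% in Cell20. The 4 B16F nuclei lay close together, while Cell38 and Cell39 of B18F were the highest and the lowest of all. In several patterns below, among them gene overlap and listing by other nuclei, these 2 nuclei also differed from the other 8. In others, such as the difference between the files, they did not. Results that they move are also given without them. Cell39 listed the fewest autosomal windows, 52534, and Cell25 the most, 172914, with 92804 in Cell38. How many reads stand behind a window is unknown.

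File 1 held a larger share of between-slice windows than file 0 in 8 of 10 nuclei. The means were 27.9% ± 7.14 in file 1 and 24.2% ± 7.58 in file 0, a difference of 3.70 points ± 4.93 (SD, n = 10, exact sign-flip permutation test, p = 0.0234, adjusted p = 0.0402 over 12 tests). The gap was widest in Cell19, with 28.5% in file 1 and 15.9% in file 0, and in Cell20, with 30.3% in file 1 and 18.4% in file 0. Without Cell38 and Cell39 the difference was 4.001 points (exact sign-flip p = 0.0625). Cell17 and Cell26 went the other way.

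**Figure D1:**
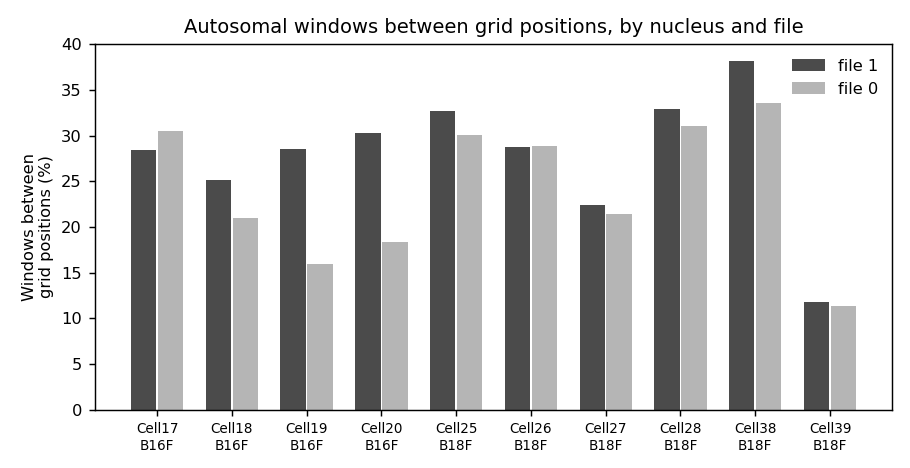
Percent of autosomal windows placed between grid positions (y axis) in file 1 (dark bars) and file 0 (light bars) of each nucleus, with the batch under its name. File 1 is higher in 8 nuclei, Cell39 is the lowest nucleus at 11.5% over both files and Cell38 the highest at 37.1%.

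Positions between slices often fell on simple fractions of a step. This describes the measure that the rule used and carries no test. The position was a whole number plus a fraction with denominator 2 for 14.3% ± 6.12 of the between-slice windows of a nucleus (SD, n = 10), with denominator 3 for 8.80% ± 2.93 and with denominator 5 for 9.87% ± 2.33. Denominators of 5 or less covered 35.8% ± 11.99 of them, from 21.4% in Cell25 to 60.1% in Cell38. Denominators above 20 covered 34.7% ± 12.6, from 6.38% in Cell38 to 50.9% in Cell25. Cell38, with the highest share between slices, had the coarsest fractions, and Cell25, with the most windows listed, had the finest. The files give no counts, so what the denominators stand for was not examined. The median distance to the nearest grid position was 0.256 steps ± 0.048, and 13.97% ± 6.44 of the windows lay within 0.05 steps of the grid.

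Between-slice windows were less common at the ends of the axis, again as a description. With the axis of a nucleus divided into 5 equal parts from its lowest position, their share was 21.5% ± 7.05, 35.1% ± 16.8, 36.2% ± 11.1, 38.3% ± 18.6 and 14.4% ± 6.02 (SD, n = 10). The central 50% of the axis held 64.03% ± 14.6 of the between-slice windows and 48.8% ± 18.9 of the on-grid windows. Single nuclei departed from this shape, with a share of 73.2% in the second part of Cell26 and 82.8% in the fourth part of Cell38. Part of the shape is built in, since the 5 parts hold unequal numbers of grid positions. In most nuclei the outer parts hold more of them than some inner parts, as in Cell26, which has 7 grid positions. The lowest position of a nucleus is also on the grid by definition.

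Along the chromosome, both kinds of window had positions closer to those of their neighbours than to those of the rest of the genome, and the gap was smaller for between-slice windows. Position set the classes, so no test was made. The distance to the nearest on-grid window within 50 kb in the same file averaged 0.545 axis units ± 0.226 for between-slice windows and 0.505 ± 0.258 for on-grid windows (SD, n = 10). As a ratio to the mean distance from all on-grid autosomal windows of the file, this came to 0.820 ± 0.090 for between-slice windows and 0.729 ± 0.141 for on-grid windows. The ratio was below 1 for both classes in every nucleus, and nearest to 1 in Cell38, at 0.950 for each. The nearest on-grid window was within 1 step of 35.2% ± 11.8 of between-slice windows, and of 52.8% ± 16.9 of on-grid windows. Part of this gap is built in. On-grid windows had exactly the position of that neighbour in 39.5% ± 15.4 of cases, which the rule does not allow for between-slice windows. They also have more grid positions within reach of 1 step.

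Positions within the range of the neighbours were less common for between-slice than for on-grid windows. Where an on-grid window was listed within 50 kb on each side, 35.4% ± 4.74 of between-slice windows and 67.0% ± 12.5 of on-grid windows had a position within the range of those 2 neighbours. The rule sets part of this gap. Where the 2 neighbours share a position, an on-grid window there counts as within the range, and a between-slice window cannot. Adjacent pairs of between-slice windows had the same position in 0.69% ± 0.54 of cases, against 49.8% ± 19.96 for adjacent pairs of on-grid windows. By construction, on-grid windows share a small number of positions.

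Between-slice windows clustered along the chromosome. A window was between slices in 41.1% ± 5.95 of cases where the next window in the same file was between slices, and in 27.8% ± 7.36 of cases where it was on the grid. The difference was 13.3 points ± 5.21, positive in 10 of 10 nuclei (exact sign-flip p = 0.00195, the smallest that 10 nuclei can give, adjusted p = 0.00586). It ran from 7.56 points in Cell38 to 22.1 points in Cell39. At equal local coverage it was 12.3 points, and without the windows listed in 8 or more nuclei it was 11.7 points, both positive in 10 of 10 nuclei.

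In all, 36.7% ± 8.84 of between-slice windows stood in runs of at least 2 adjacent windows, from 25.9% in Cell39 to 50.6% in Cell25. The longest run had 32 windows, or 320 kb, in file 1 of Cell25 at chr1:170790001-171110000. In Cell17 it was 190 kb at chr8:20260001-20450000, in Cell18 150 kb at chr14:3550001-3700000 and in Cell19 120 kb at chr1:85050001-85170000. In Cell20 it was 150 kb at chr5:15580001-15730000. The shortest was 80 kb, in Cell39. These runs were picked for their length after the values were seen.

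Local coverage was higher around between-slice windows. Of the 10 flanking slots of 10 kb, 5 on each side, 4.40 ± 0.91 were listed in the same file for between-slice windows and 3.69 ± 0.92 for on-grid windows. The difference of 0.70 ± 0.28 slots was positive in 10 of 10 nuclei (exact sign-flip p = 0.00195, adjusted p = 0.00586). It was smallest in Cell27 at 0.110 and largest in Cell39 at 1.04. The share between slices was 12.9% ± 4.31 for windows with no listed flanking slot, 19.1% ± 5.27 with 1, 30.5% ± 6.39 with 5 and 47.0% ± 17.9 with all 10. The share rose at every slot count in the B16F nuclei and in Cell28 and Cell38, but not in the other 4 nuclei. From 4 to 10 slots it was 32.6% and 42.6% in Cell25, 33.2% and 35.6% in Cell26 with 27.9% at 8 slots, 24.3% and 19.1% in Cell27, and 17.1% and 17.8% in Cell39.

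**Figure D2:**
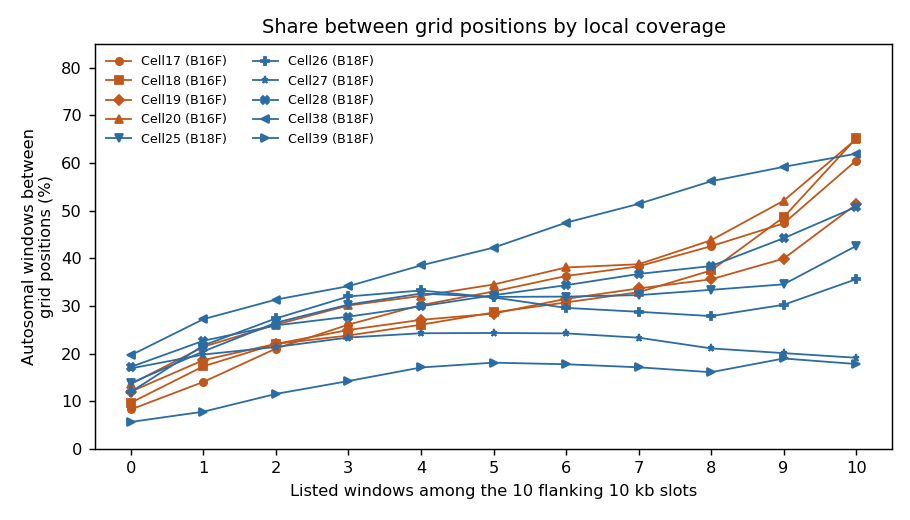
Percent of autosomal windows between grid positions (y axis) against the number of listed windows among the 10 flanking slots of 10 kb in the same file (x axis), 1 line per nucleus, B16F in orange and B18F in blue. The mean over nuclei is 12.9% with 0 listed slots and 47.0% with 10.

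Between-slice windows were also listed by more of the other nuclei. Each was listed in 5.16 ± 0.70 of the 9 other nuclei, and each on-grid window in 3.86 ± 0.41. The difference of 1.29 ± 0.72 nuclei was positive in 10 of 10 (exact sign-flip p = 0.00195, adjusted p = 0.00586). It was 0.0197 in Cell38 and 0.0474 in Cell39, and 0.879 to 1.95 in the other 8 nuclei, whose mean was 1.61. Without the windows listed in 8 or more nuclei the difference was 0.49 nuclei, positive in 9 of 10 (exact sign-flip p = 0.0039). Of the 230896 distinct autosomal windows listed anywhere, 138444 were between slices in at least 1 nucleus and 92452 in none.

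The share between slices followed the number of listing nuclei in 8 of the 10. Over windows listed in a single nucleus it was 13.6% ± 7.44 (SD, n = 10), over those listed in 5 nuclei 22.3% ± 8.14, in 7 nuclei 32.1% ± 9.49 and in all 10 nuclei 57.5% ± 20.2. Windows listed in 8 or more nuclei numbered 21199, or 9.18% of the distinct windows. In 8 nuclei their share between slices was 44.8% to 68.5%, against 16.5% to 28.6% for all other windows of the same nuclei. Cell38 had 33.2% there and 37.6% elsewhere, and Cell39 had 12.02% there and 11.4% elsewhere, so neither followed the rest. This relation is a description with no test of its own. It rests on the same listings as the comparison with the other nuclei above.

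**Figure D3:**
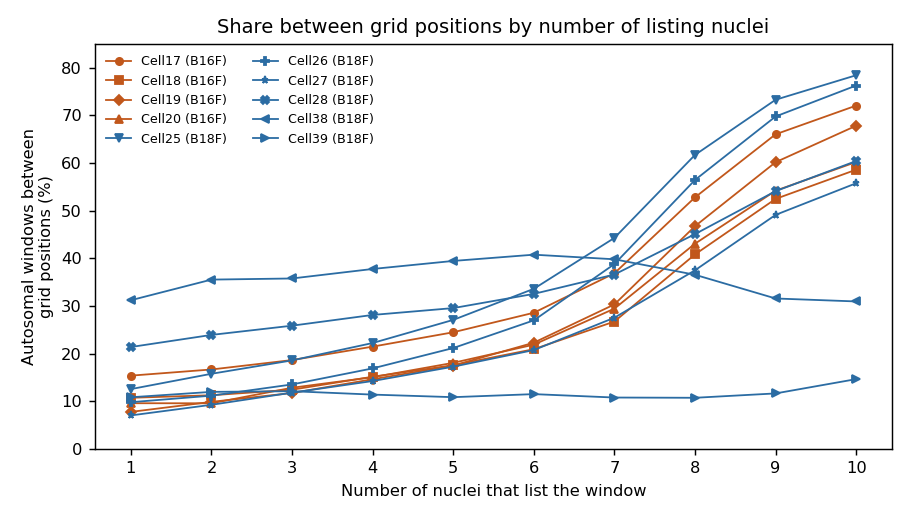
Percent of windows between grid positions in each nucleus (y axis) against the number of nuclei that list the window in either file (x axis), 1 line per nucleus, B16F in orange and B18F in blue. In 8 nuclei the lines climb steeply from 7 listing nuclei on, and those of Cell38 and Cell39 do not.

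Recurrence was then taken across batches, where the nuclei that set the class of a window do not give the values. Windows between slices in at least 1 B16F nucleus were between slices in 35.4% ± 13.1 of listings in the B18F nuclei, and windows on the grid in every B16F nucleus that lists them in 23.2% ± 9.44. The difference was 21.9 points in Cell25, 25.7 in Cell26, 16.1 in Cell27, 10.8 in Cell28, −1.35 in Cell38 and 0.259 in Cell39. The mean of 12.2 points ± 11.1 (SD, n = 6) was positive in 5 of 6 nuclei and did not pass (exact sign-flip p = 0.0938, adjusted p = 0.113). Over the 4 nuclei without Cell38 and Cell39 it was 18.6 points, where no exact sign-flip test can pass.

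With the batches exchanged, the 4 B16F nuclei had 33.3% ± 2.47 for windows between slices in a B18F nucleus and 17.1% ± 3.09 for windows on the grid there. The difference of 16.2 points ± 1.48 was positive in 4 of 4 nuclei, where the smallest p the exact sign-flip test can give is 0.125. At an equal number of listing nuclei of the other batch the differences were 8.60 points in B18F and 12.7 points in B16F. Without the windows listed in 8 or more nuclei they were 4.40 points in B18F and 4.94 points in B16F.

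In all 10 nuclei, 48 windows were between slices in at least 1 file, out of 2981 windows listed in all 10. They lay on 12 chromosomes, with 14 on chromosome 6 and 10 on chromosome 9. Of the 48, 17 were adjacent to another of them and 10 lay within 5 Mb of the start of their chromosome. Any RefSeq gene was overlapped by 24. The matching shares of all 2981 windows were not computed, so these counts, and those by chromosome, do not set the 48 apart. A protein-coding gene was overlapped by 13 of the 48 (27.1%), against 25.96% of all windows listed in 10 nuclei. The first 5 by chromosome and start were chr1:85020001-85030000 with the pseudogene Gm7582, chr1:85090001-85100000 in the protein-coding gene A530032D15Rik, chr2:98660001-98670000 and chr2:147920001-147930000 with no gene, and chr3:10840001-10850000 in the long noncoding RNA gene Gm33551. Others, named after their values were seen, overlapped Chl1, which encodes a neural cell adhesion protein, Inpp4b, a phosphoinositide phosphatase, Lars2, the mitochondrial leucyl-tRNA synthetase, and Sfi1, known from yeast as a centrin-binding protein of the spindle pole.

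For 7 of these 48 windows both files of all 10 nuclei gave a position. They were the 4 windows of chromosome 9 from 3000001 to 3040000, chr2:98660001-98670000, chr14:19410001-19420000 and chr17:39840001-39850000. The last holds the 18S ribosomal RNA related sequence Rn18s-rs5 and was on the grid in 1 of its 20 files, while the other 6 were between slices in all 20. The 7 windows lie on 4 chromosomes. The SD over their 14 positions in a nucleus averaged 7.88% of the axis, from 4.62% in Cell39 to 13.8% in Cell19. Over all autosomal windows of a nucleus the SD averaged 26.4%. The window of chromosome 17 lay apart from the other 6 in several files, at 3.12% of the axis in file 0 of Cell18 and 1.58% in file 0 of Cell19. Without it, a choice made after its values were seen, the SD within a nucleus averaged 3.22%, from 1.59% in Cell28 to 5.69% in Cell26.

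The mean place of the 7 windows varied between nuclei along with that of all windows. In B18F their mean was 58.4% of the axis in Cell25, where the mean of all autosomal windows was 58.7%. It was 26.01% in Cell26 (all windows 31.5%), 35.9% in Cell27 (49.8%), 23.2% in Cell28 (34.3%), 43.6% in Cell38 (38.3%) and 91.3% in Cell39 (85.3%). In B16F it was 46.3% in Cell17 (all windows 45.7%), 46.7% in Cell18 (47.9%), 45.0% in Cell19 (49.7%) and 45.8% in Cell20 (46.5%). The 2 means differed by 4.93 points ± 4.598 in size (SD, n = 10), at most by 13.9 points in Cell27. Across the 10 nuclei Pearson's r was 0.954, given as a description, since both means come from the same slices and Cell39 lies far from the other 9. The other 41 of the 48 windows were more spread within a nucleus, with an average SD of 18.4%.

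The window chr9:3000001-3010000 shows the range. In file 1 and then file 0, its position was 46.6% and 44.2% of the axis in Cell17, 47.7% in both files of Cell18, 27.5% and 27.7% in Cell26, 17.7% and 19.3% in Cell28, 46.8% and 40.5% in Cell38 and 93.9% and 92.1% in Cell39. Of all 10 nuclei, Cell38 had the widest gap between its files. In grid steps the position was 10.25 in file 1 and 9.73 in file 0 of Cell17, and 1.65 in file 1 and 1.66 in file 0 of Cell26.

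Windows whose gene promoter is found word for word elsewhere were more often between slices. Of 31365 RefSeq promoter sequences of 300 bases on the autosomes, 253 recur in another window, mostly in pairs (94 sets of 2 windows). The largest set has 6 members, vomeronasal receptor genes from Vmn1r111 to Vmn1r257 on chromosome 7, which has 87 of the 253, ahead of chromosome 14 with 47. Among between-slice windows with a promoter, 1.93% ± 0.57 held a recurring promoter, and among on-grid windows with a promoter 0.81% ± 0.16. The difference of 1.12 points ± 0.56 was positive in 9 of 10 nuclei, all but Cell38 (exact sign-flip p = 0.0039, adjusted p = 0.00938).

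Put the other way, 41.9% ± 9.29 of windows with a recurring promoter and 24.04% ± 8.62 of windows whose promoters occur once were between slices. The recurring class is small, with 52 to 170 listings a nucleus. Without the windows listed in 8 or more nuclei the difference in recurring promoters was 0.41 points (exact sign-flip p = 0.0254). The GC content of these promoters was 52.8% ± 1.01 for between-slice windows and 53.4% ± 0.31 for on-grid windows, a difference of −0.53 points ± 0.83 that did not pass (exact sign-flip p = 0.0742, adjusted p = 0.111). Under other settings it ranged from −1.03 to −0.03 points, and 5 of 21 settings brought the unadjusted p under 0.05.

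Between-slice windows overlapped genes less often than on-grid windows. The share that overlapped a protein-coding gene was 41.0% ± 5.18 for between-slice windows and 46.3% ± 1.94 for on-grid windows. In B18F the differences were −7.82 points in Cell25, −12.1 in Cell26, −5.61 in Cell27, −0.9999 in Cell28, 3.85 in Cell38 and 1.04 in Cell39. In B16F they were −7.09 points in Cell17, −7.72 in Cell18, −9.92 in Cell19 and −6.98 in Cell20. The mean of −5.33 points ± 5.03 was negative in 8 of 10 nuclei and passed (exact sign-flip p = 0.0137, adjusted p = 0.0273), and without Cell38 and Cell39 it was −7.28 points. Gene overlap itself varied with the number of listing nuclei. It was 47.3% for windows listed in 1 nucleus, 50.6% for those listed in 4 and 25.96% for those listed in 10. Without the windows listed in 8 or more nuclei the difference was −1.30 points (exact sign-flip p = 0.227), and counted as gene starts within 500 kb it was −0.09 genes (exact sign-flip p = 0.723).

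Gene families differed in how often windows around them were between slices. For each gene, the share was taken over windows within 50 kb of it and set against the autosomal share of the same nucleus. A nucleus needed at least 3 such windows to count. Over the 19708 protein-coding genes measured in at least 6 nuclei, 36.7% had a mean deviation above 0, and the median was −2.87 points. The receptor families of smell stood on the other side. Of the olfactory receptors, which detect odours in the nose, 63.3% of the 1028 measured were above 0 with a median of 3.74 points. Of the vomeronasal receptors, which detect pheromones, 239 of 337 (70.9%) were above 0 with a median of 4.78 points. These counts are descriptions without a test, since genes of a family lie side by side and share windows.

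The highest olfactory receptor gene was Olfr385 on chromosome 11, with a mean share of 62.2% in the 8 nuclei that measured it and a deviation of 34.7 points ± 13.5 (SD, above 0 in 8 of 8). The lowest was Olfr1276 on chromosome 2, at 2.38% in 7 nuclei, with 16.7% in Cell17 and 0% in the others that measured it. The highest and lowest genes given here and below are the extremes of their lists. They can rest on as few as 3 windows in a nucleus. Among vomeronasal receptors Vmn1r129 was highest at 54.4% and Vmn2r101 lowest at 5.86%. Defensins, small antimicrobial peptides, had 36 of 69 genes above 0 and a median of 0.12 points, from Defa37 at 52.6% to Defb3 at 3.54%. The 365 Zfp genes, mostly zinc finger factors, had 44.7% above 0 and a median of −1.51 points, from Zfp786 at 51.9% to Zfp788 at 6.11%.

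The other groups had medians below 0, as did all protein-coding genes together (−2.87 points, 36.7% above 0). Clustered protocadherins and histone genes lay near that median, and the Hox genes above it. The Hox genes, which pattern the body axis, had 16 of 39 above 0 and a median of −1.26 points, with Hoxb9 highest at 40.7% and Hoxd13 lowest at 11.5%. Clustered protocadherins had 20 of 57 above 0 and a median of −3.00 points, histone genes 18 of 53 and −3.72 points, and keratins and their associated proteins 29.5% of those measured and −4.46 points. H1f4, a linker histone gene, was the highest histone gene at 47.2%, and Krtap6-1 the lowest of the keratin group at 2.78%. Imprinted genes had 4 of 18 above 0 and a median of −4.66 points, from Ndn at 41.9% to Grb10 at 7.02%.

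Pluripotency genes, active in these cells, had 5 of 18 above 0 and a median of −5.64 points. Around Pou5f1, the gene for OCT4, the mean share was 29.0% in 9 nuclei, a deviation of 0.38 points ± 18.1 (SD). Around Nanog it was 28.9% in 10 nuclei, with values from 0% in Cell39 to 50% in Cell17. Sox2 had 12.9%, with 60% in Cell38 and at most 18.2% in the other 9 nuclei. Klf4 had 17.9%, Zfp42 18.8% and Esrrb, which encodes an orphan nuclear receptor, 21.3%. The SD of the deviation over nuclei was 10.8 to 18.1 points for these 6 genes, larger than each mean deviation.

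Of the 19 autosomes, chromosome 9 had the lowest share between slices and chromosome 14 the highest. Chromosome 9 was lower than the other 18 autosomes in 10 of 10 nuclei, with 23.9% ± 8.04 on chromosome 9 and 27.0% on the others, a difference of −3.16 points ± 1.63 (exact sign-flip p = 0.00195, adjusted p = 0.0371 over 19 autosomes). It was the only autosome called, which is 5.26% of the 19. Leaving out any of 8 nuclei, all but Cell38 and Cell39, took its adjusted p to 0.0742, which is the smallest that test can then give for a single chromosome. The next lowest were chromosome 11 at −2.62 points ± 2.57 (adjusted p = 0.148) and chromosome 19 at −2.40 points ± 2.89 (adjusted p = 0.158). The highest were chromosome 14 at 3.20 points ± 3.58 (positive in 9 of 10 nuclei, adjusted p = 0.148), chromosome 1 at 1.69 points ± 3.94 and chromosome 3 at 0.84 points ± 3.00, none of which passed. Without Cell38 and Cell39, 6 autosomes passed, chromosomes 9, 11 and 19 as lower and chromosome 14 as higher among them (adjusted p = 0.0297 for each of these).

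**Figure D4:**
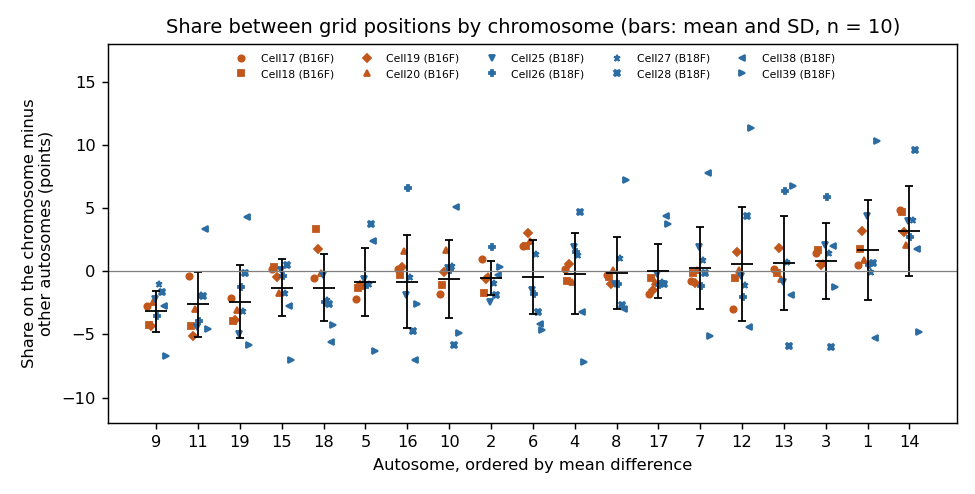
Difference in the share between grid positions, chromosome minus the other 18 autosomes (percentage points, y axis), for each autosome in order of its mean (x axis). Each mark is a nucleus, B16F in orange and B18F in blue, and black bars give the mean and SD over 10 nuclei. Chromosome 9 is below 0 in all 10 and chromosome 14 has the highest mean, 3.20 points.

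Pooled over the autosomes, the start of the sequenced chromosomes had a higher share than the rest. Over the first 5 Mb of sequence, from 3 Mb on, the share between slices was 30.3% ± 6.96, against 26.7% ± 6.96 elsewhere, higher by 3.61 points ± 2.03 and in 10 of 10 nuclei. Over the last 5 Mb it was 25.99% ± 7.996, against 26.9% ± 6.91 elsewhere. No test was made of these shares. The first 5 Mb include the bins of chromosome 14 from 3 to 8 Mb, called higher below with deviations of 23.3 to 30.4 points. They also include the called bins chr9:3000001-4000000 at 13.8 points and chr11:3000001-4000000 at 10.8 points. How far these bins make up the difference was not computed, so it cannot be read as a trait of every chromosome.

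In bins of 1 Mb, 31 of 2083 (1.49%) had a higher share between slices than the autosomes of the same nuclei and 33 (1.58%) a lower share (limma, adjusted p under 0.05). The bins called higher had deviations of 9.18 to 37.5 points, and those called lower of −12.3 to −8.69 points. Of the 31 higher bins, 9 were on chromosome 14, at 3 to 8 Mb, 19 Mb and 41 to 44 Mb. Chromosome 14 held 0 of the 33 lower bins and 5.04% of all bins tested. Bins of both kinds held more protein-coding genes than the median bin, 10 for higher and 9 for lower bins, against 6 over all bins tested.

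The highest bin was chr8:20000001-21000000. Its share ran from 33.9% through a median of 66.5% to 85.7% over the 10 nuclei, a deviation of 37.5 points ± 3.96 (SE, limma, adjusted p = 6.03e-08). It was above the share of the nucleus in 9 of 10, all but Cell38. The genes with the most sequence in it are Gm21119, Gm15319 and Gm6040, for which no role is annotated. The windows around Gm15319 were between slices in 73.0% of cases and those around Gm21119 in 68.6%, the genes with the identical promoters above.

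Chromosome 14 gave 3 of the 5 highest bins. The bin from 4 to 5 Mb, with Gm26650, Gm32966 and Gm10410, had a median share of 57.6%, with a lowest value of 15.4%, and a deviation of 30.4 points ± 4.99 (SE), above 0 in 10 of 10 nuclei (limma, adjusted p = 0.000227). The bin from 3 to 4 Mb, with Gm2977, Gm3050 and Gm2897, had 29.0 points ± 5.01, and the bin from 5 to 6 Mb, with Gm3248, Gm3194 and Gm3500, had 25.9 points ± 4.80, each above 0 in 9 of 10 nuclei. In these 2 bins Cell39 was the nucleus below its own mean.

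On chromosome 1, the bin chr1:85000001-86000000 holds Gm7592, Gm38510 and Sp100, which encodes a protein of nuclear bodies. Its share was the least variable of the 5, from 39.8% to 61.9% with a median of 53.5%. The deviation was 26.3 points ± 3.11 (SE, limma, adjusted p = 4.86e-07) and above 0 in 10 of 10 nuclei, Cell38 and Cell39 included. Promoters that recur in another window were 2 of 10 in the chromosome 8 bin, 13 of 29, 1 of 31 and 13 of 29 in the chromosome 14 bins from 3, 4 and 5 Mb, and 0 of 17 in the chromosome 1 bin. In the 5 lowest bins they were 0 of 72. Over all autosomes they were 253 of 31365, so a count of 0 in 72 does not set the lowest bins apart.

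The lowest bin was on chromosome 10. In chr10:24000001-25000000, with Moxd1, Enpp1 and Enpp3, the last 2 being ectonucleotide pyrophosphatases, the share had a median of 13.98% and a lowest value of 0%, with a deviation of −12.3 points ± 2.75 (SE, limma, adjusted p = 0.00962), below 0 in 10 of 10 nuclei. The others were below 0 in 9 of 10. They were chr8:88000001-89000000 with Nkd1, a Wnt antagonist, Tent4b and Adcy7, an adenylyl cyclase, at −11.7 points ± 2.79, and chr4:109000001-110000000 with Faf1, Osbpl9 and Eps15, an endocytosis adaptor, at −11.6 points ± 2.84. chr9:28000001-29000000 with the neural adhesion genes Opcml and Ntm had −11.4 points ± 2.62 and chr4:84000001-85000000 with Bnc2 and Cntln −11.3 points ± 2.75.

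**Figure D5:**
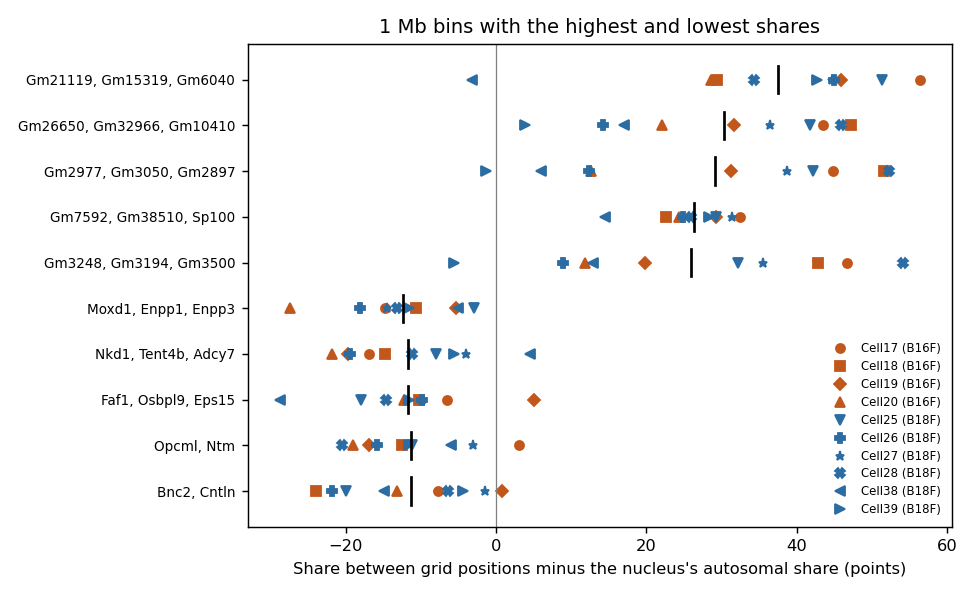
Share between grid positions in a 1 Mb bin minus the autosomal share of the nucleus (percentage points, x axis) for the 5 bins with the highest and, under them, the 5 with the lowest mean, labelled by the protein-coding genes with the most sequence in them. Each mark is a nucleus, B16F in orange and B18F in blue, and the black line is the mean, from 37.5 points at the top to −11.3 points at the bottom.

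The counts of called bins moved with the nuclei and windows used. Leaving out Cell38 gave 4.22% higher and 6.05% lower bins, leaving out Cell39 2.17% and 3.46%, and leaving out Cell20 0.767% and 0.144%. Without any other nucleus except Cell28, 0.864% to 1.10% were higher and 0.432% to 0.912% lower. Without Cell38 and Cell39 they were 196 higher and 267 lower, with all 64 bins called before among them. Without the windows listed in 8 or more nuclei 0 of the 1283 bins tested passed in limma in either direction, with 9.04% at an unadjusted p under 0.05. Of the 64 bins 36 were still tested, and 34 of these kept their direction. Only 9 of the 31 higher bins were among those still tested, so most higher bins were not tested again.

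No difference in being listed by both files of a nucleus passed. The other file also listed 31.4% ± 9.51 of the between-slice windows and 35.2% ± 12.5 of the on-grid windows, a difference of −3.78 points ± 6.82 that did not pass (exact sign-flip p = 0.111, adjusted p = 0.121). It was negative in 7 of 10 nuclei, −6.14 points without Cell38 and Cell39 (exact sign-flip p = 0.0234) and 2.74 points without the windows listed in 8 or more nuclei.

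The files seldom gave such a window the same place. Of windows between slices in both files of a nucleus, 0.63% ± 0.68 had the same position in both, against 83.6% ± 14.4 of windows on the grid in both. By construction, windows on the grid share a small number of positions and between-slice windows can take many. Much of this contrast is thus set by the rule. A window between slices in file 0 was between slices in file 1 in 33.0% ± 6.27 of cases, and a window on the grid in file 0 in 27.1% ± 11.5, higher in 8 of 10 nuclei. Among windows whose positions differed between the files the order turned, with 32.9% ± 6.24 where file 0 was between slices and 71.6% ± 9.73 where it was on the grid. That difference of −38.8 points ± 10.04 (−18.3 points with a tolerance of 0.05 steps) is a description with no test. Leaving out windows with equal positions removes most of those on the grid in both files, which sets its direction.

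Chromosomes outside the autosomes served as comparison. On X the share between slices was 32.0% ± 7.71, against 26.9% ± 6.94 on the autosomes, a difference of 5.09 points ± 8.31 that did not pass (exact sign-flip p = 0.0859, adjusted p = 0.113). X was higher in 8 of 10 nuclei and lower in Cell28 (28.8% on X, 32.1% on autosomes) and Cell38 (22.7% on X, 37.1% on autosomes). Without Cell38, the nucleus furthest in the other direction, the difference was 7.26 points (exact sign-flip p = 0.0117). Leaving out any other single nucleus did not bring it past the threshold. On Y the share was 22.5% ± 9.81, and on unplaced scaffolds 43.3% ± 7.54.

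No difference between the batches passed. The closest were recurring promoters, with 0.893 points in B18F and 1.45 points in B16F (B18F minus B16F, −0.56 points, exact permutation test over 210 splits, p = 0.114, adjusted p = 0.365), and the GC content of promoters, with −0.19 points in B18F and −1.03 points in B16F (p = 0.124 by the same exact test). For gene overlap the batches had −3.60 points in B18F and −7.93 points in B16F (exact permutation p = 0.219). With 6 and 4 nuclei, differences of this size cannot be told from the spread within a batch.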

How the data were processed

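The authors deposited 20 position files, 2 for each of 10 nuclei. Per the file headers, each line pairs a window of 10 kb with its position on the slicing axis. This position is in another unit than a count, a fraction or a log value, and its name is not given in the sources used here. The DNA of each profile went through whole genome amplification before sequencing (HiSeq X), per the labels' protocols. Trim Galore 0.6.4, Bowtie2 2.3.5, Picard and the build mm10 are named in the submitters' processing notes. How reads became positions is not given in the sources used here, and the depth behind a window is unknown, so no interval or floor for counting error could be given. The profiles of a nucleus are slices of it and not replicates.

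Each nucleus gave 1 value to a test, over both files. Values were tested with an exact two-sided sign-flip permutation test (1024 patterns of signs), in which 10 nuclei cannot give a p under 0.00195 and 6 nuclei not under 0.0312, with Benjamini-Hochberg adjustment over 12 such tests, over 19 autosomes, or over 1 Mb bins. Of the 12, the comparison of the other file is given without its p, because its selection sets its direction. Adjusted over the remaining 11, the same results pass (gene overlap 0.0301, file number 0.043). Bins needed 10 listed windows in each nucleus and were fitted in limma 3.58.1 (R 4.3.3) as the deviation from the nucleus's autosomal share, with an intercept and a trend on the mean number of windows. Batches were compared over all 210 splits. Genes came from the RefSeq table of GRCm38.p6, whose coordinates on the primary chromosomes are those of mm10 (21887 protein-coding genes). Gene symbols of the histone list were matched through their older names. Distances, places on the axis and fractions were described without a test, since the rule used the positions.

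Genes were named by rule: the 3 protein-coding genes with the greatest overlap in the 5 highest and 5 lowest called bins with the same sign in at least 9 of 10 nuclei, 6 core pluripotency genes, and the highest and lowest member of each gene group. Chromosomes were the 3 highest and 3 lowest, and windows the first 5 by coordinate among those between slices in the most nuclei. Other names were chosen after values were seen. The members, lists and tests were chosen with earlier results of these data known. Promoter GC, recurring promoters, the left-out windows listed in 8 or more nuclei, the left-out Cell38 and Cell39, the adjustment over 11 tests, and equal flanking coverage or equal numbers of listing nuclei for results other than gene overlap and X were added after seeing the data. The computation was tested on simulated data with planted differences. Each simulated window was drawn independently, with the same base share in every nucleus. Apart from what was planted, the simulated data had neither clustering along the chromosome nor a spread between nuclei. They therefore do not show how the tests behave with either.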

Additional observations from a re-analysis of the deposited data

Results flagged for a closer look

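Cell39 stood apart from the other 9 nuclei on 2 chromosomes. On chromosome 15 its share between slices was below that of its other autosomes (a difference of −7.0004 points, where the next lowest nucleus had −2.78). On chromosome 8 it was 7.26 points above, where the next highest had 1.06. Of 32 sets of nuclei looked at for such a gap, these 2 showed it, and chance gives about 1 in 20. Cell39 has the fewest windows, 52534 on the autosomes, and the lowest share between slices. The part of either in these gaps was not tested.

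The mitochondrial genome, outside the comparisons above, was listed once in each file, and all 20 of its positions lay between grid positions. Its mean place per nucleus ran from 12.2% of the axis in Cell26 to 90.2% in Cell27. It differed from the mean place of the autosomal windows of the same nucleus by −19.3 to 40.3 points, whereas the 7 autosomal windows between slices in all nuclei and listed in both files of each differed by −13.9 to 6.06 points. The controls have no position file, so no level in them can be set beside these.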

How the results depend on the processing

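Most differences kept their direction, and fewer kept their side of the threshold at an unadjusted p of 0.05. With B16F alone, where 4 nuclei cannot pass the exact sign-flip test, the values were −7.93 points for gene overlap, 10.3 points for adjacent windows, 0.75 slots for flanking coverage, 1.70 for other nuclei, 6.65 points for file number, 1.45 points for recurring promoters and −42.8 points for the other file (a value with no test). With B18F alone, gene overlap was −3.60 points, file number 1.74 points and recurring promoters 0.89 points (exact sign-flip p = 0.0625), none past the threshold. Gene overlap was −0.0936 genes when counted as gene starts within 500 kb and −1.30 points without the windows listed in 8 or more nuclei. Without those windows the difference for both files turned to 2.74 points. That difference was −7.37 points with a tolerance of 0.05 steps and −6.14 points without Cell38 and Cell39, both past the threshold. The difference in promoter GC passed with the tolerance of 0.05 steps (−0.89 points), for windows of a single file (−0.88), without Cell28 (−0.63), without Cell38 (−0.67) and without Cell38 and Cell39 (−0.71), and was −0.03 points without the windows listed in 8 or more nuclei. Adjacent windows gave 5.88 points when taken 100 kb apart and 2.52 points 1 Mb apart, positive in 10 of 10 nuclei. File number was 4.001 points without these 2 nuclei. The X difference passed with the tolerance of 0.05 steps (6.74 points), in file 0 alone (7.53), at equal flanking coverage (4.87) and without Cell38 and Cell39 (7.21). Leaving out each nucleus in turn gave 4.35 to 7.26 points for X, past the threshold only without Cell38, and −6.35 to −4.58 points for gene overlap, 2.71 to 4.35 for file number and 12.3 to 13.9 for adjacent windows.

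The number of autosomes called was 0 with the tolerance of 0.05 steps, without the outermost positions, in either file alone, in either batch alone and without the windows listed in 8 or more nuclei. It was 2 at equal flanking coverage, 6 without Cell38 and Cell39, and 0 to 4 leaving out each nucleus. Of the bins tested, the shares called higher and lower were 1.49% and 1.58%. They were 2.40% and 2.21% with the tolerance of 0.05 steps (50 bins higher), 1.31% and 0 without the outermost positions (9 of 689 bins higher), 19.2% and 0 in file 0 alone (5 of 26 bins), 0.795% and 0.318% in file 1 alone, 6.75% and 8.33% in B16F, 0.383% and 0 in B18F, 1.68% and 0.480% at equal flanking coverage, and 8.16% and 11.1% without Cell38 and Cell39. Without the windows listed in 8 or more nuclei they were 0 and 0 in limma, with fewer bins tested. They were 1.29% and 2.54% with at least 5 windows a bin, 3.11% and 0.812% with at least 20, and 3.95% and 0.894% in bins of 500 kb. Where limma called 0 lower bins, bins at an unadjusted p under 0.05 in either direction numbered 6 of 26 in file 0, 147 of 2087 in B18F, 16.98% of those without the outermost positions and 9.04% of those without the windows listed in 8 or more nuclei. Leaving out each nucleus gave 0.767% to 4.22% higher and 0.144% to 6.05% lower, the most without Cell38 and the fewest without Cell20. Where the construction of an alternative does not show it, the cause was not tested. The GC content of windows was not run, for want of a genome sequence. The differences between classes are already paired within each nucleus, and no further replicate block applies. Read depth is unknown, so its limit on these shares cannot be given.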
